A study of Pseudotsuga menziesii with 72 samples.

Results

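In needles of Douglas-fir (Pseudotsuga menziesii), 34 transcripts met a rule for high and similar mean levels at 14:00 and 18:00. Their means lay well below these levels at every other time of day sampled. They were drawn from the 180879 transcripts of the deposited counts, most of which the rule's limits on level left out. They were chosen by measured values. Levels are in CPM, the count of a transcript divided by all counts of its library on a scale where each library sums to 1000000. A transcript was eligible with a mean of at least 5 and under 1000 CPM and a mean of at least 1 CPM in every tree, which 16040 transcripts met. Of these, a member had clock-time means at 14:00 and 18:00 within 1.5-fold of each other, both at least 2-fold the mean at 2:00, 6:00, 10:00 and 22:00. The rule would have kept up to 200 transcripts with the largest afternoon share, the sum of the 14:00 and 18:00 means over the sum of all 6 clock-time means, but fewer met its limits, so all 34 were taken.

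The libraries came from 6 trees, 1A, 1B, 2A, 2B, 3A and 3B, which form 3 half-sib families of 2 by their names. All trees were 3 years old, came from 1 source (Oregon Siskiyou, low elevation) and grew in Corvallis, so every group shares source, site and age. Each tree was sampled every 4 h at 12 collections over 2 days in September, the first at 2 AM, from needles of that year's cohort, and the labels name no treatment. The name hour 16, for example, counts from that first collection and is 18:00 on day 1. A library therefore is a repeated sample of its tree, and each day is a single date. Families 1 and 2 share 1 number in their tags, and 62 of the 72 libraries have a collection-time label that disagrees with the title, from which clock times were taken. The 2 libraries labelled 1B and 2A at 6:00 on day 1 each resembled the other's tree and were left out of the rule and of the tests, which leaves 70 libraries: 24 from the afternoon times and 46 from the others, with 10 at 6:00 and 12 at each other time. Library totals ran from 10.3 to 55.9 M counts, where M stands for 1000000, with a median of 22.8 M.

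Leaves change much of their transcript content over the day, under light, temperature and an internal clock. In Arabidopsis thaliana that clock is a loop of regulators that act in sequence, with CCA1 and LHY at dawn, PSEUDO-RESPONSE REGULATOR proteins through the day, and GIGANTEA and TOC1 in the afternoon and evening. The deposited tables do not pair transcript IDs with gene names, so no member is tied here to one of these genes or to any function, gene lists could not be used, and the labelled tissue was not checked against marker genes. Needles were sequenced whole, where fewer cells of a type and less RNA per cell cannot be told apart.

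In the members' course over the day, levels rose steeply between 10:00 and 14:00, stayed high at 18:00, were well down by 22:00 and were lowest at 6:00 in most. These are the values the rule used, and they are given as a description. The 14:00 mean was 2.15 to 16.9 times the 10:00 mean (median over members 4.60). The mean of both afternoon times was 2.24 to 9.76 times the mean of the other 4 (median 4.25), and 2.50 to 17.9 times the lowest clock time (median 7.73). The afternoon share ran from 52.8% to 83.0% (median 68.0%). Under this fitted contrast, afternoon minus the other times on the log2 scale, the members lay between 1.14 and 3.28 with a median of 2.30, against −0.01 over the 52820 transcripts tested, of which 24% were called higher in the afternoon.

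**Figure D1:**
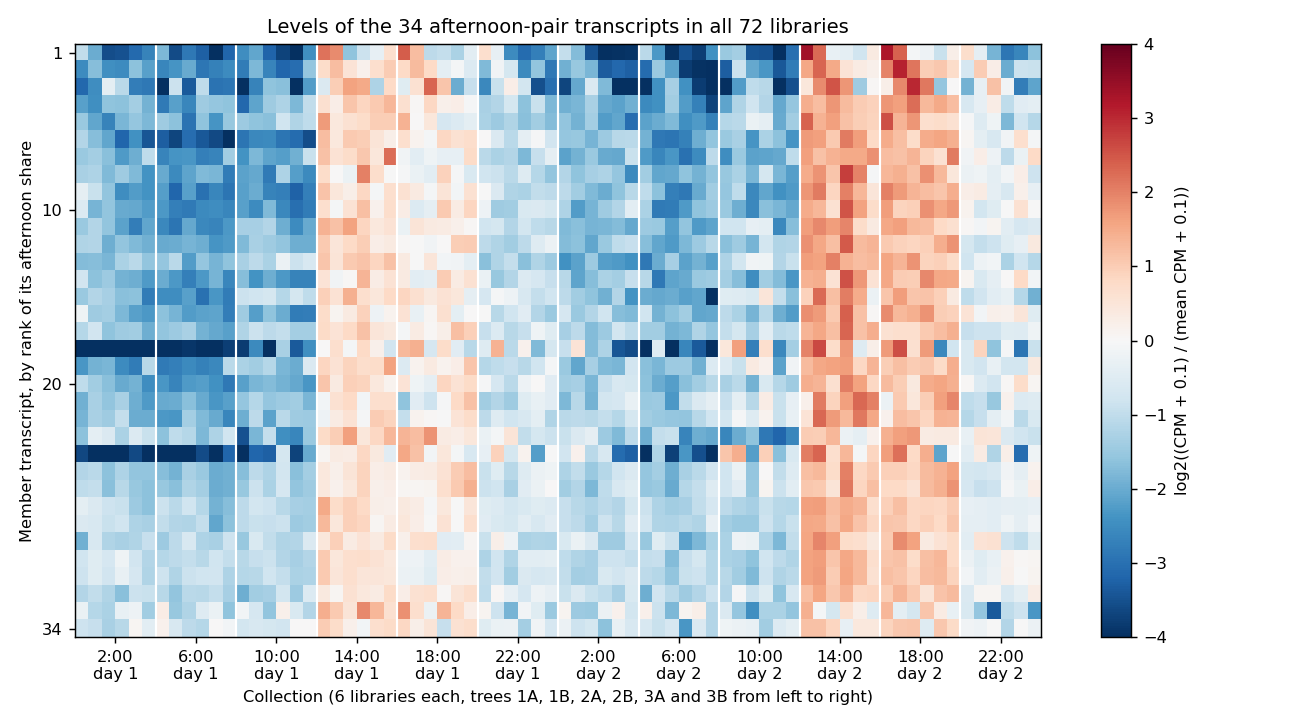
Level of each of the 34 members (rows, ordered by afternoon share, largest at the top) in each of the 72 libraries (columns, by collection and, within a collection, by tree), as log2 of CPM plus 0.1 over the member's mean CPM plus 0.1. The 4 red bands are 14:00 and 18:00 on both days, and those of day 2 are darker in most rows. The 2 libraries left out of the rule, 1B and 2A at 6:00 on day 1, are drawn.

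Levels stood higher after the afternoon than before it in most members. At 22:00 members stood at 22.2% to 49.8% of their 18:00 mean (median 39.2%), and 22:00 was the highest of the other 4 times for 31 members. The 22:00 mean exceeded the 10:00 mean in 31 members and was at least 2-fold that mean in 12 (median ratio 1.63, range 0.864 to 3.94). From 22:00 the fall went on in 33 members, with the 2:00 mean at a median of 52.3% of the 22:00 mean. The lowest clock time was 6:00 for 23 members, 10:00 for 8, 2:00 for 2 and 22:00 for 1, and 25 stood higher at 10:00 than at 6:00. The top was slightly early: 28 members were higher at 14:00 and 6 at 18:00, with ratios of 14:00 over 18:00 from 0.808 to 1.50 (median 1.15).

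Members ranged from a mean of 6.20 to 257 CPM (median 23.2), with 9 under 10 CPM and 6 at 100 CPM or more. The most abundant was psme_t005942. Its level was 591 ± 256 CPM at 14:00 and 439 ± 145 CPM at 18:00, against 108 ± 28 CPM at 2:00, 81.5 ± 17.8 CPM at 6:00, 129 ± 27 CPM at 10:00 and 166 ± 36 CPM at 22:00 (SD, n = 12 libraries at each time, 10 at 6:00). Its lowest afternoon library, at 241 CPM, lay above its highest library of any other time, at 227 CPM. Such separation over all 70 libraries held for 3 members, the others being psme_t006144 and psme_t014411, named after their values were seen. It held for 0.0227% of the 52820 transcripts tested, and it rests on the contrast that the rule used.

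The largest afternoon share, 83.0%, was that of psme_t029400. Its level was 15.6 ± 18.3 CPM at 14:00 and 14.5 ± 17.8 CPM at 18:00, against 3.23 ± 3.47 CPM at 22:00, 1.10 ± 1.06 CPM at 2:00, 0.932 ± 0.836 CPM at 6:00 and 0.923 ± 0.723 CPM at 10:00. The SDs are as large as the means, and the trees differ in level, as described below. The next largest share, 79.8%, and the lowest ratio of 14:00 to 18:00, 0.808, were those of psme_t061207. This transcript stood at 17.63 ± 9.45 CPM at 14:00 and 21.8 ± 18.6 CPM at 18:00, against 5.34 ± 4.54 CPM at 22:00 and 1.19 to 1.75 CPM from 2:00 to 10:00. The highest ratio, 1.50, was that of psme_t041906, with 56.5 ± 20.7 CPM at 14:00 and 37.8 ± 22.8 CPM at 18:00, against 16.4 ± 9.1 CPM at 22:00 and 4.78 to 7.07 CPM from 2:00 to 10:00.

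**Figure D2:**
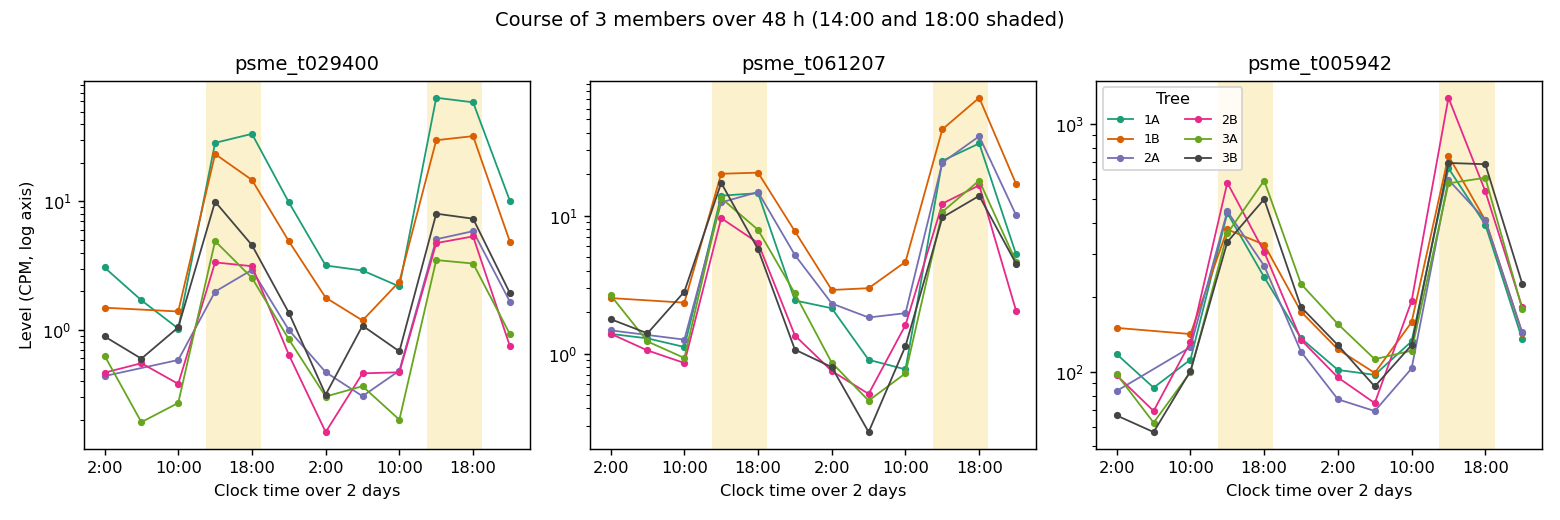
Level in CPM (log axis) of psme_t029400, psme_t061207 and psme_t005942 at the 12 collections, with a line for each tree and the afternoon times shaded. All 3 peak in every tree on both days, and the trees lie far apart for psme_t029400 and close together for psme_t005942. The 6:00 point of day 1 is missing for trees 1B and 2A.

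At the limit of the rule, psme_t035379 was the member nearest to 2-fold. Its lower afternoon mean was 2.01 times its highest other mean, with 19.3 CPM at 14:00 and 19.2 CPM at 18:00, against 9.54 CPM at 22:00, its highest other time. Just outside lay psme_t005412 at 1.96 times, with 16.4 CPM at 14:00 and 10.96 CPM at 18:00, against 5.58 CPM at 10:00. Some members departed from the common shape outside the afternoon. For psme_t042351 the higher part of the rest of the day was 2:00 and 6:00, with 15.2 ± 6.4 CPM at 2:00 and 17.4 ± 8.2 CPM at 6:00 (n = 10). Its lowest level was 11.6 ± 6.6 CPM at 22:00 (n = 12), close to 12.0 ± 6.2 CPM at 10:00. For psme_t055022 and psme_t047886 the rise began earlier, with a mean at 10:00 that was 5.22 and 7.12 times the mean at 6:00.

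The afternoon rise can be laid out tree by tree. These are libraries that the rule used, so the counts describe the members and test nothing. Within a tree and a day there are 2 afternoon libraries and up to 4 others, and the lower afternoon library lay above every other library in 400 of the 408 combinations of member, tree and day. Of the 34 members, 30 showed this in all 12 tree-days and 32 in at least 10, which 0.36% and 1.13% of the 52820 transcripts tested did. The lowest counts, 9 of 12 tree-days, were those of psme_t055022 and psme_t047886. Over both days of a tree, 14 members were without overlap in all 6 trees, as were 0.167% of the transcripts tested. In the 2 libraries that the rule left out, which are 6:00 libraries whichever tree they came from, all 34 members lay under 1/2 of their lower afternoon mean in both. The rule had already held the members' 6:00 means to this limit in the other 6:00 libraries, so the count tests nothing either. It was not made for all transcripts.

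Because the members were chosen on these libraries, the rule was applied again to part of them and its transcripts were read in the rest. On day 1 alone 11 transcripts met the rule, of which 10 are members, and in the 36 libraries of day 2 all 11 were higher in the afternoon in edgeR's quasi-likelihood test (median log2 difference 2.70, range 1.25 to 3.55, largest adjusted p = 2.04e-11). The share of all transcripts called higher there was 22.5%. On day 2 alone 47 met the rule, of which 28 are members, and all 47 were called higher in the 34 libraries of day 1 (median 1.90, range 0.91 to 3.35, largest adjusted p = 5.33e-06), against 15.8% of all transcripts. In trees 1A, 2A and 3A alone 27 met the rule, all of them members, and all 27 were called higher in their sibs 1B, 2B and 3B (median 2.39, range 1.58 to 3.25, largest adjusted p = 3.40e-10), against 18.3% of all transcripts. The trees are the same on both days and the collections the same in both sets of sibs, so these readings are repeats within 6 trees on 2 dates. They describe how the rule repeats and do not test the 34 members, which were chosen on all 70 libraries.

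The afternoon level was higher on day 2. For each library, the median over members of the level relative to the member's own mean summarises the set. Through day 2 this relative level was 0.410 ± 0.062 at 2:00, 0.314 ± 0.050 at 6:00, 0.420 ± 0.093 at 10:00, 2.50 ± 0.59 at 14:00, 2.17 ± 0.16 at 18:00 and 0.775 ± 0.020 at 22:00 (SD over trees, n = 6). Through day 1 it was 0.345 ± 0.067, 0.243 ± 0.025, 0.349 ± 0.054, 1.58 ± 0.19, 1.21 ± 0.13 and 0.585 ± 0.061 at the same times (n = 6, and 4 at 6:00). At 18:00 the lowest tree of day 2, at 1.97, lay above the highest of day 1, at 1.38, while at 14:00 the days overlapped, with tree 3B at 1.63 on day 2 and tree 2B at 1.804 on day 1. Summed over the members, the level at 14:00 averaged 4733 CPM on day 2, against 2767 CPM on day 1, and at 18:00 it averaged 4005 CPM on day 2, against 2365 CPM on day 1. The 14:00 sum of day 2 rests in part on tree 2B, at 7226 CPM, against 3449 to 5034 CPM in the other 5 trees, and averaged 4234 CPM without it. Library totals moved the same way at these times, with a median of 26.3 M counts on day 2, against 19.999 M on day 1 at 14:00, and 25.5 M on day 2, against 21.3 M on day 1 at 18:00. Their part in the difference was not tested.

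**Figure D3:**
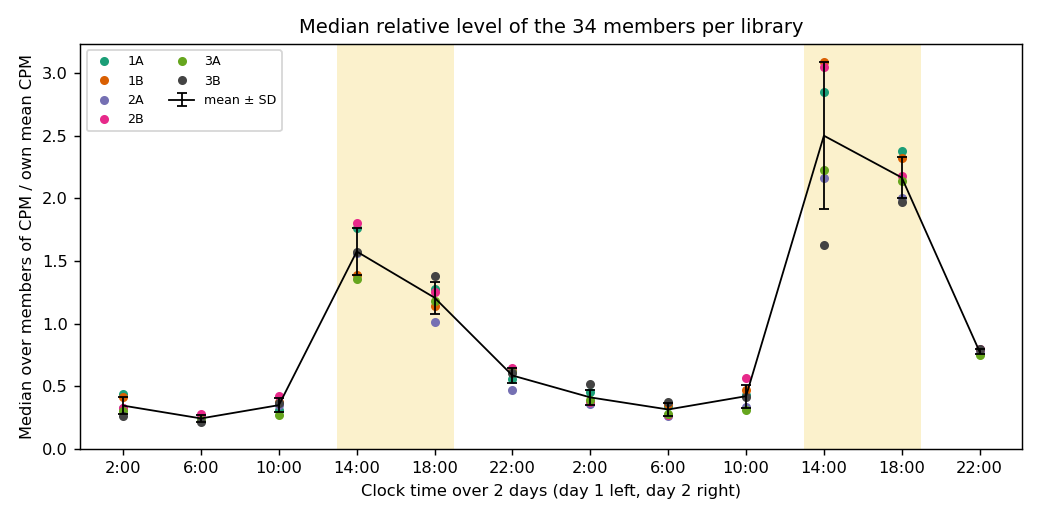
Median over the 34 members of CPM over the member's mean CPM, in each of the 70 libraries (points, coloured by tree), with the mean and SD over trees at each of the 12 collections (line and bars). The afternoon values (shaded) reach 1.63 to 3.09 on day 2 and 1.01 to 1.804 on day 1, and all other values lie under 0.8.

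Day 2 was tested against day 1 within trees in edgeR's fit over all 52820 transcripts, with Benjamini-Hochberg adjustment over all of them. The rule averages over days and did not use this difference, but it did use these libraries. On day 2 alone 47 transcripts met the rule, 28 of them members, and on day 1 alone 11, 10 of them members. A high afternoon on 1 day can lift the mean over both days above the limit. Differences by day, here and below, are therefore not independent of the choice of members. At 18:00, 22 members were higher on day 2 and 1 was lower, against 1.93% and 1.54% of all transcripts. The median log2 difference over the 34 was 0.76, with a range of −0.64 to 1.26, against −0.02 over all transcripts. Each of the 22 was higher in 6 of 6 trees, as were 8 of the 11 members not called. Such counts over trees were not made for all transcripts. At 14:00, 18 members were higher on day 2 and 2 were lower, against 6.31% and 6.75% of all transcripts, with a median of 0.59 and a range of −1.08 to 1.09. Of these 18, 13 were higher in 6 of 6 trees and the rest in 5. Of the 14 members not called, 1 was higher in 6 of 6 trees and 7 in at least 5. Higher at both times were 14 of the 34 members, against 1.21% of all transcripts. These 14 are 77.8% of the members called higher at 14:00 and 63.6% of those called higher at 18:00. Over all transcripts, 640 were called higher at both times, out of 3335 at 14:00 and 1021 at 18:00. Most transcripts called higher at 18:00 were thus also called higher at 14:00, whether members or not. The 2 readings share trees but no library.

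**Figure D4:**
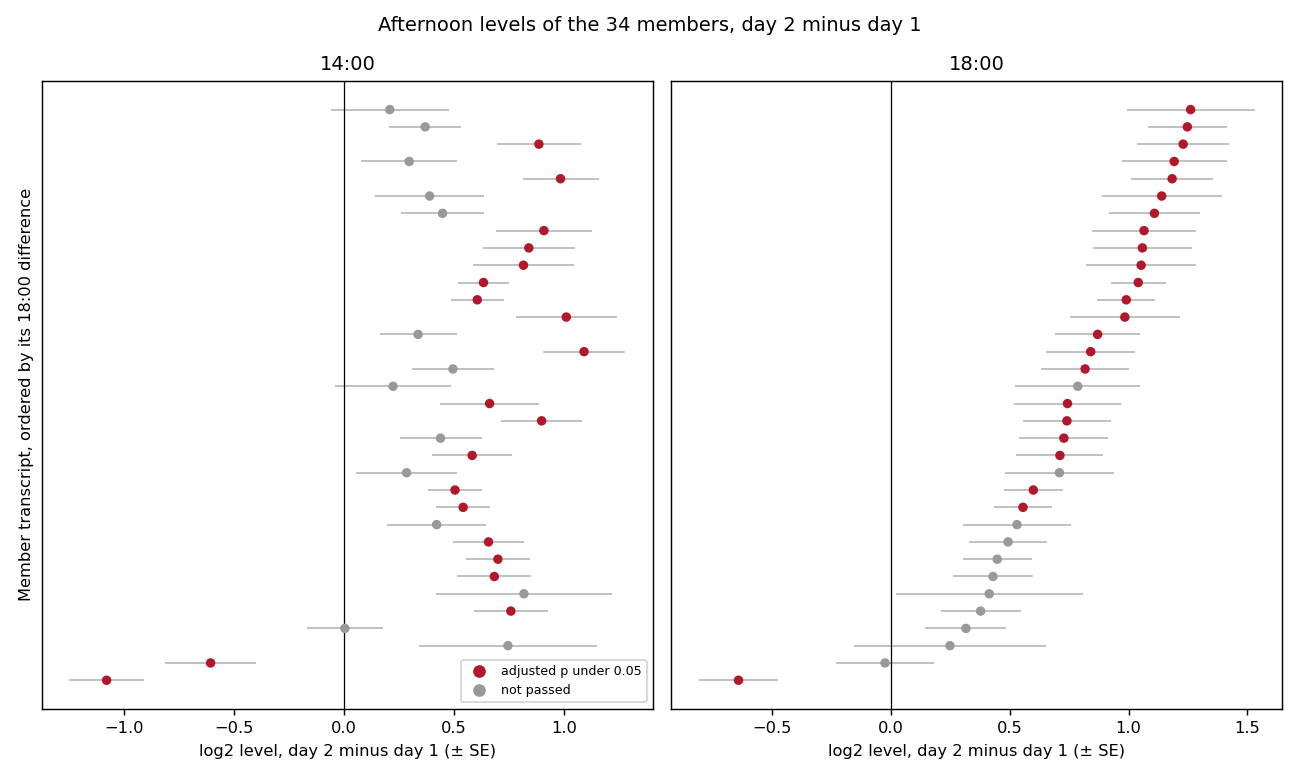
Fitted log2 level on day 2 minus that on day 1, with its SE, of each of the 34 members (rows, ordered by the 18:00 difference) at 14:00 and at 18:00. Red points passed at an adjusted p under 0.05. Most members lie right of 0 at both times, and 1 member is red left of 0 at both.

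The largest called difference at 18:00 was that of psme_t061207. In trees 1A, 1B, 2A, 2B, 3A and 3B its 18:00 level was 33.5, 71.9, 37.8, 16.7, 18.0 and 14.0 CPM on day 2, against 14.6, 20.6, 14.9, 6.36, 7.91 and 5.72 CPM on day 1. Every tree was higher on day 2, and the groups of 6 libraries overlap. The log2 difference was 1.26 ± 0.27 (SE, edgeR adjusted p = 0.0025), and at 14:00 it was 0.21 ± 0.27 (adjusted p = 0.683). The largest called difference at 14:00 was that of psme_t039324, with 19.98, 68.5, 45.1, 33.8, 59.6 and 40.6 CPM on day 2, against 11.9, 17.2, 20.4, 13.3, 27.99 and 25.4 CPM on day 1 in the same order of trees. All 6 trees were higher on day 2, by 1.09 ± 0.19 on the log2 scale (edgeR adjusted p = 3.58e-05).

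One member went the other way at both times. At 14:00 psme_t042351 stood at 59.9, 21.1, 13.6, 35.1, 26.6 and 15.5 CPM on day 2, against 60.8, 46.5, 32.1, 85.0, 55.8 and 34.8 CPM on day 1 in trees 1A to 3B. At 18:00 it stood at 55.8, 17.0, 13.6, 48.0, 28.3 and 18.2 CPM on day 2, against 80.4, 35.5, 18.8, 57.6, 38.7 and 26.9 CPM on day 1. All 6 trees were lower on day 2 at both times, in tree 1A at 14:00 by little. The log2 differences were −1.08 ± 0.17 at 14:00 (edgeR adjusted p = 5.96e-06) and −0.64 ± 0.17 at 18:00 (adjusted p = 0.0171). The call at 18:00 was lost without tree 1A (adjusted p = 0.0578) or tree 1B (adjusted p = 0.169). The other member lower at 14:00 was psme_t029722 (−0.61 ± 0.21, adjusted p = 0.0415), named after its values were seen and lower in 4 of 6 trees. Its call was kept in DESeq2, with DESeq2's size factors and without tree 1A, and was lost without any other single tree (adjusted p from 0.0642 to 0.223), with all 72 libraries, with the exchanged labels of the 2 libraries left out, without the 2 libraries of highest total, without a filter, in limma and without the tree term. With block-specific tree terms, described next, the value is fitted for tree 1A and not over the 6 trees. It was 0.29 (edgeR adjusted p = 0.439).

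The 14:00 collection of day 1 is one of the first 4 of the series and that of day 2 one of the last 8. A shift common to all trees between these blocks cannot be told apart from the 14:00 difference between days. In part it would also enter the day differences over all clock times and in the afternoon excess. Letting the trees differ between blocks does not remove such a shift. Another fit let the trees differ between these blocks of collections (block-specific tree terms). Its 14:00 difference is fitted for tree 1A, against which the other trees are set, and is not a mean over the trees. For tree 1A, 12 members were called at 14:00, all higher on day 2, against 4.15% of all transcripts called higher. There psme_t042351 did not pass (−0.62, edgeR adjusted p = 0.0747). How the mean over trees fares under this fit was not tested. At 18:00 both collections lie in the last 8, and the difference does not depend on the tree chosen. There the same fit gave 27 higher and 1 lower, against 3.43% and 3.01% of all transcripts.

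Over all 6 clock times, 24 members were higher on day 2 and 2 were lower, against 15.3% and 19.7% of all transcripts, with a median log2 difference of 0.33. Of the 24, 22 were higher in 6 of 6 trees and the rest in 5. Of the 8 members not called, 1 was higher in 6 of 6 trees and 5 in at least 5. The largest rise was that of psme_t055022 (1.19 ± 0.21, edgeR adjusted p = 9.07e-06), and its days were farthest apart from 2:00 to 10:00. On day 2 its level was 4.85 ± 5.23 CPM at 2:00, 1.82 ± 2.65 CPM at 6:00 and 11.6 ± 11.9 CPM at 10:00 (SD, n = 6), each time highest in tree 1B. On day 1 the same times had 0.39 ± 0.20, 0.42 ± 0.18 (n = 4) and 1.54 ± 1.40 CPM. In the last 8 collections alone, which hold 18:00 and 22:00 of both days, its difference was −0.058 (edgeR adjusted p = 0.921). With block-specific tree terms it was 1.89, a value fitted for tree 1A and not over the 6 trees. Over the members, 28 were higher and 1 was lower on day 2 in the last 8 collections, against 6.77% and 6.58% of all transcripts. The largest fall was that of psme_t042351 (−0.53 ± 0.07, edgeR adjusted p = 2.09e-08), lower on day 2 in 6 of 6 trees. With block-specific tree terms the value, fitted for tree 1A, was −0.25 and did not pass (edgeR adjusted p = 0.183).

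The afternoon excess, the mean log2 level of 14:00 and 18:00 minus that of the other 4 times, was itself larger on day 2 for some members. Its median over members was 2.42 on day 2, against 2.08 on day 1. Tested as a difference of differences, 10 members had a larger excess on day 2 in edgeR, against 0.487% of all transcripts. A smaller one was called for 0 members in edgeR, with 3 at an unadjusted p under 0.05, and for 1 in DESeq2, against 0.691% of all transcripts in edgeR and 1.5% in DESeq2. The median difference over the 34 was 0.49, and 30 were positive. Of the 10, 6 had a larger excess in 6 of 6 trees and the rest in 5. Of the 24 members not called, 5 had a larger excess in 6 of 6 trees and 15 in at least 5. The largest was that of psme_t029498, with 22.8 ± 4.9 CPM at 14:00 and 18.7 ± 5.6 CPM at 18:00 on day 2, against 15.4 ± 2.5 CPM and 8.00 ± 1.88 CPM on day 1 (SD, n = 6). At 2:00, 6:00, 10:00 and 22:00 it stood at 1.70 ± 0.51, 1.86 ± 0.66, 4.84 ± 1.69 and 4.85 ± 1.65 CPM on day 2, against 2.64 ± 0.60, 2.41 ± 0.26 (n = 4), 4.23 ± 1.29 and 2.98 ± 0.61 CPM on day 1, so outside the afternoon its mean was lower on day 2 at 2:00 and 6:00 and higher at 10:00 and 22:00. Its excess was 0.97 ± 0.18 larger on day 2 (SE, edgeR adjusted p = 0.000792), in 6 of 6 trees. The 2 most negative differences were those of psme_t047886 (−0.94 ± 0.40) and psme_t055022 (−0.85 ± 0.40), neither of which passed (adjusted p = 0.301 and 0.362). The count of 10 was 4 without tree 1B, 5 without tree 2A and 6 without tree 3A. It was 6 without the 2 libraries of highest total (3A at 18:00 on day 1 and 2B at 14:00 on day 2). With block-specific tree terms the difference is fitted for tree 1A and is not a mean over the trees. That fit called 19 members, 16 larger on day 2 and 3 smaller, against 1.35% and 2.27% of all transcripts.

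The trees differed in the level of every member, as they did for most transcripts. The test of 6 trees passed all 34 members, against 92.5% of all transcripts, and the ratio of the highest to the lowest tree mean ran from 1.29 to 15.0 (median 2.01). The ratio was at least 2 in 17 members and at least 5 in 4. Tree 2B was highest for 11 members, 1A and 1B for 8 each, 2A for 4, 3B for 3 and 3A for 0, so no tree was highest throughout. The smallest p was that of psme_t029400, whose mean in trees 1A to 3B was 18.3, 10.7, 1.89, 1.70, 1.50 and 3.15 CPM (edgeR adjusted p = 6.57e-28). It stood highest in the 2 trees of family 1. The next was psme_t030880, with 4.45, 13.7, 28.96, 15.6, 1.93 and 5.02 CPM in the same order (adjusted p = 1.56e-23). Despite such levels the afternoon excess of psme_t029400 was 2.70 to 3.68 in the single trees, and its difference between trees did not pass (adjusted p = 0.869).

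The size of the afternoon excess differed between trees for 2 members, against 0.32% of all transcripts. Fitted excesses over all members and trees ran from 0.83 to 3.68 on the log2 scale. That all are positive describes libraries which the rule used, whereas the rule did not use differences between trees. For psme_t039324 the excess was 1.36 ± 0.16 in 1A and 1.47 ± 0.15 in 2B, against 2.08 ± 0.16 to 2.49 ± 0.15 in the other 4 trees (SE, edgeR adjusted p = 0.00856). For psme_t026262 the same trees were low, with 1.17 ± 0.22 in 1A and 1.52 ± 0.20 in 2B, against 2.12 ± 0.21 to 2.55 ± 0.20 in the others (adjusted p = 0.0439). The calls rest on single trees: neither transcript passed without 1A (adjusted p = 0.211 and 0.584), 2B (0.0803 and 0.123) or 3A (0.0539 and 0.138), and psme_t026262 did not pass without 1B or 3B (0.0565 and 0.0632), without the 2 libraries of highest total (0.104) or with all 72 libraries (0.0950). Between these 2 transcripts the deviations from tree and collection means correlated with r = 0.667.

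**Figure D5:**
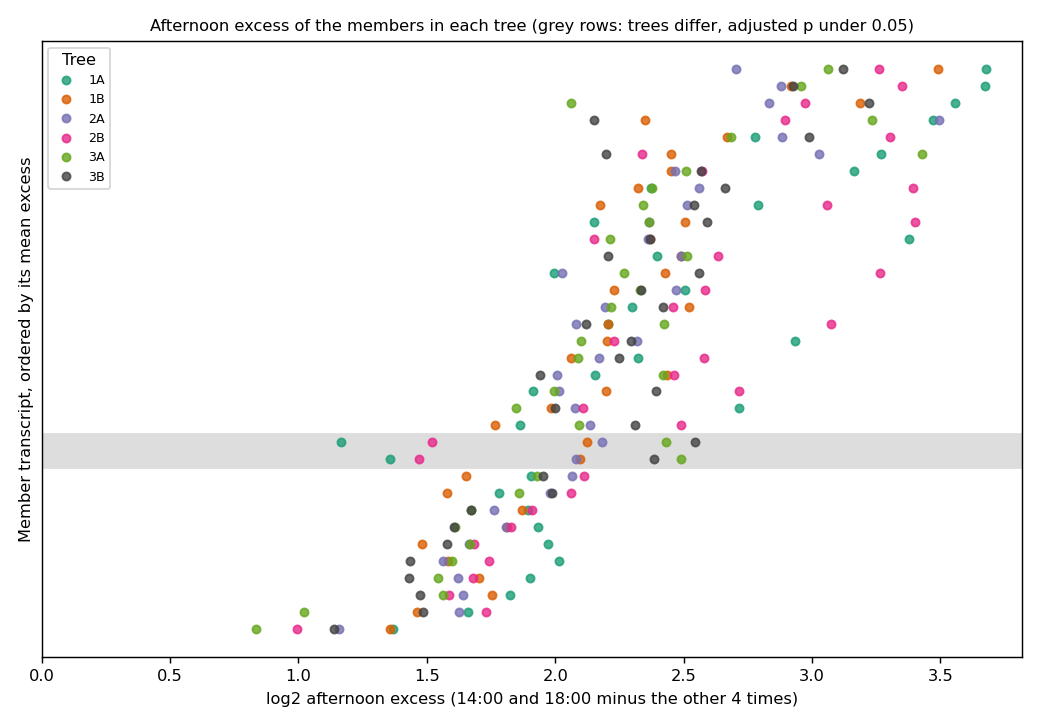
Fitted log2 afternoon excess (14:00 and 18:00 minus the other 4 times) of each of the 34 members (rows, ordered by their mean excess) in each of the 6 trees (colours). All points lie right of 0.8. In the 2 grey rows, psme_t026262 and psme_t039324, trees 1A and 2B lie left of the other 4.

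For the members, no difference between families was called. With counts summed to 6 trees, 2 in each family, 0 members and 0.0% of all transcripts passed in edgeR, with 5 members and 4730 of all 52820 transcripts at an unadjusted p under 0.05, and 0 members passed in limma on tree means, where 0.199% of all transcripts did. The smallest adjusted p among members was that of psme_t029400 (0.216), followed by psme_t042909 (0.354). Transcript psme_t042909 averaged 31.5 and 36.6 CPM in the trees of family 1 and 34.9 and 29.9 CPM in those of family 2, against 19.2 and 18.7 CPM in those of family 3. With 2 trees a family, differences between families are hard to separate from those between trees.

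Members also moved together, in part, beyond the means of trees and collections. After these means of log2(CPM + 1) were removed, pairs of members had a mean correlation of 0.157 over the 70 libraries, against 0.0875 for pairs of eligible transcripts. Of the 561 pairs of members, 359 were positive, a share that was not counted for eligible pairs. Differences between trees in the size of the afternoon excess were not removed and remain in these values. The libraries share trees, pools and depth, and the values are a description. In 6 pairs r exceeded 0.9, the closest being psme_t009002 and psme_t014127 (0.958), followed by psme_t055022 and psme_t047886 (0.933). Near-identical copies of a gene, or one gene assembled as 2 transcripts, can share reads, and the files used here do not show which pairs are such copies. How many genes stand behind the 34 transcripts is not known. The most negative pair was psme_t061207 and psme_t026262 (−0.58).

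Some transcripts that met the 2-fold limit were not members because they leaned to 14:00. Of the eligible transcripts, 66 had both afternoon means at least 2-fold every other mean. The limit of 1.5-fold removed 32 of them, all with 14:00 higher and 0 with 18:00 higher. The members had a median afternoon excess of 2.30, against 3.54 for these 32. At 18:00 on day 2 against day 1, 22 members were called higher with a median log2 difference of 0.76, against 28 of the 32 with a median of 1.18. At 14:00, 18 members were called higher with a median of 0.59, against 9 of the 32 with a median of 0.52. Whether the 2 sets differ was not tested, since both were drawn by measured values.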

How the data were processed

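Strand-specific polyA RNA libraries of whole needles, sequenced in pools of 6, gave the deposited table of raw counts for 180879 transcripts. Per the submitters' processing notes the authors used Bowtie2 2.2.3, CASAVA 1.8 and DESeq. The transcriptome mapped to, not given in the sources used here, was not needed for the values below. The other table, as deposited, is a signal for 41382 transcripts, equal to the count over 1 size factor per library (0.45 to 2.40). It holds all 34 members and served for alternatives. No column of another sample was present (0).

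CPM was taken per column sum. Tests were edgeR 4.0.16 quasi-likelihood F tests under R 4.3.3 on the counts, with TMM factors (0.744 to 1.17), filterByExpr with the 12 collections as groups (52820 transcripts and at least 98.2% of each library kept), collection and tree as terms and Benjamini-Hochberg adjustment over all transcripts tested. A call is an adjusted p under 0.05. All 34 members passed the filter, so no member is missing from any test. Tree was the replicate block, since by the labels each of the 6 trees was sampled at every collection. The trees also share each collection, so a difference between days is one between 2 dates. For families the counts of a tree were summed first. The tests were tried on simulated counts.

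The members, lists and tests were chosen with earlier results of these data known. Named transcripts follow a rule: the largest called rise and fall between days, the 2 of smallest p between trees, in tree by afternoon and between families, the 2 largest shares, the highest mean, the lowest and highest ratio of 14:00 to 18:00 and the nearest to the 2-fold limit on either side. Others are named as chosen after their values were seen. Alternatives were DESeq2 1.42.0 (test and size factors), limma 3.58.1 on log2(normalized value + 1) and on tree means, no filter, all 72 libraries, exchanged labels of the 2 libraries left out, each tree left out, no replicate block, block-specific tree terms (first 4 against last 8 collections), the last 8 collections alone and, for the rule, single days, medians, other scalings and the collection-time label. Leaving out the 2 libraries of highest total was added after the data were seen. Version 1.17.8 of data.table read the tables in R, and Python 3.11.15 with matplotlib 3.10.9 drew the plots.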

Additional observations from a re-analysis of the deposited data

Results flagged for a closer look

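In 2 collections the total of 1 library lay far from those of the other 5 trees. Tree 3A at 18:00 on day 1 held 55.9 M counts, and tree 2B at 14:00 on day 2 held 41.2 M. Their median relative levels over the members, 1.18 and 3.05, lay within the range of the other trees of their collections. Summed over the members, tree 2B stood apart there at 7226 CPM, against 3449 to 5034 CPM in the other 5 trees, while tree 3A, at 2769 CPM, lay within their 1781 to 3019 CPM. Among the fitted excesses of single trees, psme_t029498 stood apart in tree 1A, with a log2 afternoon excess of 2.93, against 2.10 to 2.32 in the other 5 trees. In 36 such groups of libraries or trees chance gives about 1 in 20, or 1.8, and 3 were found.

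The afternoon excess differed between days for 10 members, all with the larger excess on day 2, and between trees for 2 members, psme_t039324 and psme_t026262. Each day is a single date.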

How the results depend on the processing

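Against 34 transcripts, the rule was met by 0 with the collection-time label, 47 on day 2 alone (28 of them members), 11 on day 1 alone (10 members) and 19 in the last 8 collections alone (15 members). It found 25 to 37 transcripts when a tree was left out, the fewest without 3B. Without the tree as replicate block, the members called for a different afternoon excess by day numbered 2, against 10 with it, those differing by day at 14:00 numbered 7, against 20, and those at 18:00 numbered 4, against 23. With block-specific tree terms these counts were 19, 12 and 28, but the first 2 are fitted for tree 1A and are not means over the trees. The excess by day was called for 16 members in DESeq2 (15 larger on day 2 and 1 smaller), for 6 without the 2 libraries of highest total, and for 4 to 12 when a tree was left out. Members differing by day numbered 16 to 23 at 14:00 and 16 to 23 at 18:00 when a tree was left out, the fewest at 18:00 without 1B. Without the 2 libraries of highest total they numbered 15 at 14:00 and 25 at 18:00. Members whose excess differed between trees numbered 1 with all 72 libraries, 6 without a filter, 5 with block-specific tree terms, 1 without the 2 libraries of highest total and 0 to 2 when a tree was left out, against 2. The day difference of psme_t055022 changed sign in the last 8 collections alone, to −0.058. The 14:00 difference of psme_t029722 with block-specific tree terms, 0.29, also had the other sign, but it is fitted for tree 1A. The causes were not tested. For the named transcripts, 167 of the remaining values stayed on the same side of an adjusted p of 0.05 and 29 lost the call. Values with a direction kept it. The tests of trees, of the excess between trees and of families have no direction and were judged by the adjusted p alone. For 9 members a mean under 10 CPM limits what a single library can show.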
